A study of Mus musculus with 6 samples.

Results

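The genes described here encode the machinery of DNA replication and the start of S phase, the part of the cell cycle in which the genome is copied. All 58 listed genes had a probe set of their own, of 19938 gene symbols tested in all. For a gene with several probe sets the one of highest average level across the 6 arrays was taken, so levels chose the probe sets and are given as a description. The subset difference was not part of that choice of probe sets.

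Expression was measured with Affymetrix arrays in macrophages of regenerating mouse muscle, in a Ly6C- F4/80high and a Ly6C+ F4/80low subset from each of 3 mice, with 1 array per subset and mouse. All mice were of the strain B6.129P2-Lyzstm1(cre)Ifo/J, which carries Cre at the lysozyme locus of myeloid cells, so both subsets share that allele, and no mouse without it is compared. Injury of the tibialis anterior muscle was by cardiotoxin, a membrane-damaging snake venom protein, and the subsets were sorted on day 2 after injury from bead-selected CD45-positive blood-lineage cells. The sources used here give no age or sex for the mice. No uninjured muscle and no other day is compared. The question is how these subsets of the same injured muscle differ.

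A cell copies its DNA once per cycle. In G1 the origin recognition complex, Cdc6 and Cdt1 load the ring of Mcm2 to Mcm7 onto origins, a step called licensing. At S-phase entry the kinases Cdc7-Dbf4 and cyclin E-Cdk2 turn this ring into an active helicase with Cdc45 and GINS, and polymerases alpha, delta and epsilon copy the strands with the Pcna clamp. Transcription factors of the E2F family switch on many of these genes when the retinoblastoma proteins release them, and macrophages that arise from blood monocytes mostly leave the cycle unless they divide locally in the tissue.

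Values are log2 levels after RMA, a method that corrects the background, normalises arrays and sums probes into probe sets. Each difference is the mean of the 3 Ly6C- F4/80high arrays minus the mean of the 3 Ly6C+ F4/80low arrays, given with its standard error (SE). A difference was called at a limma adjusted p under 0.05, with the Benjamini-Hochberg adjustment over all 19938 genes. The background level was 5.44, the 95th percentile of the mean levels of 1194 olfactory and vomeronasal receptor genes, which these cells are not known to use. For a gene under this level on the 3 arrays of 1 subset, a fold is given only as a bound. Across probe sets, correlations were 0.990 to 0.993 within a subset and 0.979 to 0.982 between subsets, and no array stood apart. Both Ly6c1/Ly6c2 probe sets were lower in Ly6C- F4/80high cells, by 10.5-fold and 9.08-fold, and Adgre1, which encodes the other sorting antigen, differed by 0.73 (SE 0.07, limma adjusted p = 4.46e-05), as the gates set them.

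Replication genes of each step of the process were higher in Ly6C- F4/80high than in Ly6C+ F4/80low cells. Of the 58 genes 51 were higher, 1 was lower and 6 were not called, against a background of 19.5% of all genes called higher and 14.3% called lower. The 58 genes were chosen with earlier results of these data known, so the counts are a description and not a test of the list. With the arrays set to a common median, 24.0% of all genes were called higher and 8.71% lower, and the members' counts stayed at 51 and 1. The median difference of the 58 genes was 0.57, against -0.06 over all genes tested. Within mice it was 0.62 (mouse 1), 0.60 (mouse 2) and 0.64 (mouse 3), and 53 of the 58 genes had a positive difference within each mouse. For 51 genes all Ly6C- F4/80high arrays lay above all Ly6C+ F4/80low arrays, which held for 24.4% of all genes, and for 1 gene they lay below, which held for 23.6%. The arrays carry RNA of whole sorted populations, so a larger share of cycling cells and more of these RNAs per cell cannot be told apart.

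**Figure D1:**
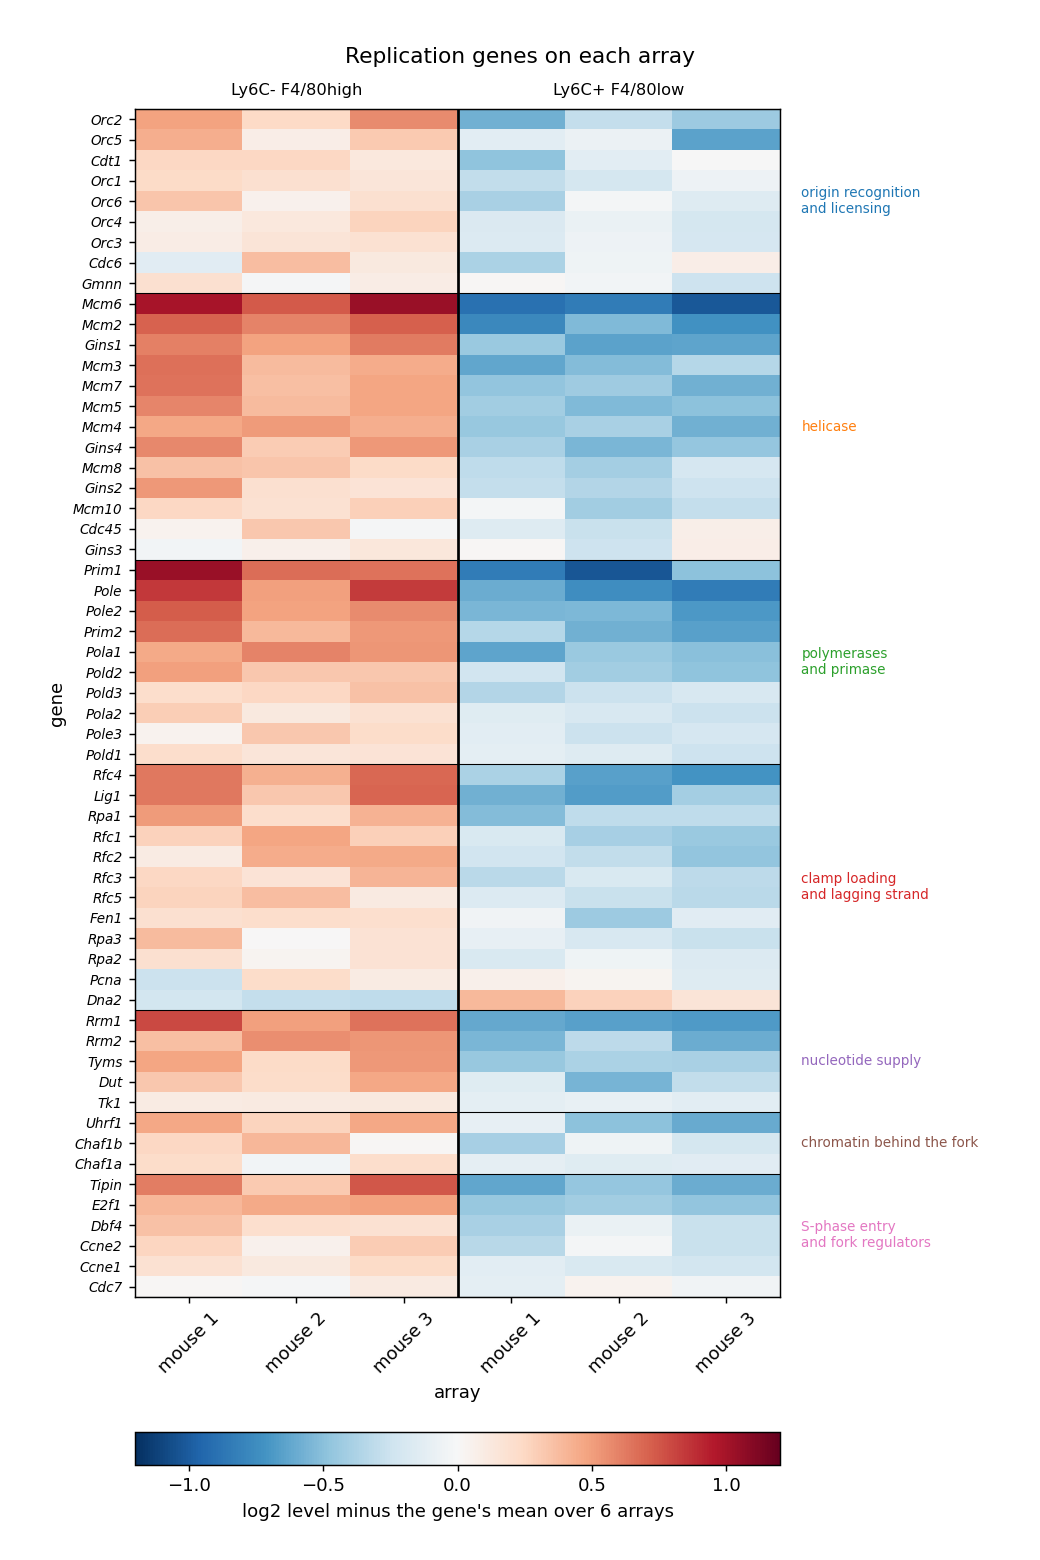
Log2 level of each of the 58 replication genes (rows, grouped by step) on each array (columns, 3 mice per subset), minus the mean of that gene over 6 arrays. Red marks a level above that mean and blue a level below it. Most rows are red on the 3 Ly6C- F4/80high arrays and blue on the 3 Ly6C+ F4/80low arrays, and Dna2 is the called gene with the opposite pattern.

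Promoter sequences are shown for 6 of these genes because E2F factors are known regulators of many replication genes. Whether E2F or these words bear on the subset difference was not tested. RefSeq promoters of build GRCm38.p6, 250 bases before to 50 after each start, were found for 48 of the 58 genes. They were searched on both strands for 4 E2F-type words of 7 letters, which can overlap on opposite strands. The first word was TTCCCGC, the next TTGGCGC, the third TTCGCGC and the last TTGCCGC. At least 1 word was present in a promoter of 30 of the 48 genes (62.5%), against 10.9% of all 27025 genes with a RefSeq promoter. With a further T in front of each word it was 17 of 48 (35.4%), against 2.60% of all genes. These 27025 include genes not tested here, whereas all members were tested. Among tested genes with a promoter, 2297 had a 7-letter word and 13317 had none. The longer word was present for 543 of them and absent for 15071. The box CCAAT, on either strand, was present for 54.2% of the members and 41.1% of all genes. Base composition differs too, with a median GC content of 62.7% in the members' promoters and 52.7% in all; how far composition accounts for the words was not tested. A match is a description and not evidence of binding.

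The stretches run 5′ to 3′ from 150 bases before to 50 after the start, with the 7-letter words in capitals. They were chosen after the words had been found. They cover the helicase subunits Mcm3 (chr1:20820263-20820462, minus strand) and Mcm6 (chr1:128359656-128359855, minus strand), the polymerase subunits Pola1 (chrX:93632106-93632305, minus strand) and Pole2 (chr12:69228141-69228340, minus strand), the clamp loader Rfc1 (chr5:65335590-65335789, minus strand), and Dna2 (chr10:62946879-62947078, plus strand), the gene that went the other way.
Mcm3: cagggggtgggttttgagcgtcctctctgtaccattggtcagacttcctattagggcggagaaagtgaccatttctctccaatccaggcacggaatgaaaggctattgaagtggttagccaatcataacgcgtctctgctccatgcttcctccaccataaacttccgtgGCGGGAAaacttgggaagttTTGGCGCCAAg
Mcm6: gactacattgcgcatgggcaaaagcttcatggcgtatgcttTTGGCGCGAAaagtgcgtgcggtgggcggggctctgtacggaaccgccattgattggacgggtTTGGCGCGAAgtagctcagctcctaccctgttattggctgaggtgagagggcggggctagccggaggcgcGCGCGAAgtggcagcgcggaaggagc
Pola1: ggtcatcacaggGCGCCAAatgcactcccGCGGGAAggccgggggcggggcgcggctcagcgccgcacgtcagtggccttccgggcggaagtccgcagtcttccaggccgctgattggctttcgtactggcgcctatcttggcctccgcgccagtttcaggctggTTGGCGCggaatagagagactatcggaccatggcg
Pole2: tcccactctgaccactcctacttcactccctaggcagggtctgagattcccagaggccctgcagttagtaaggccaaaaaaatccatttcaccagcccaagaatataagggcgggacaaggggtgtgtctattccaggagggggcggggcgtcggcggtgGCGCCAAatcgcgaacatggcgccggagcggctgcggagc
Rfc1: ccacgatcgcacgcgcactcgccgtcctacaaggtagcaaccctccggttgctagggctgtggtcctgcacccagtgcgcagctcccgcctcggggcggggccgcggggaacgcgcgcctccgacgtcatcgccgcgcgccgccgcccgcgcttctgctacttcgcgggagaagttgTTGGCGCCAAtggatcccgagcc
Dna2: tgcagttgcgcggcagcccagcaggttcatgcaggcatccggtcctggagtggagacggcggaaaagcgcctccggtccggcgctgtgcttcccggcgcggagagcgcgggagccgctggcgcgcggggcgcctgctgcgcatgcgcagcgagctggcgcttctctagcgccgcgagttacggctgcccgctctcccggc

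The Mcm6 stretch holds 5 words, 4 of them in 2 overlapping pairs on opposite strands, and Mcm3 and Pola1 hold 3 each, Rfc1 holds 2 and Pole2 holds 1. No word lies in this stretch of Dna2 or elsewhere in its 300 bases. The median difference was 0.54 for the 30 members with a 7-letter word (27 called higher) and 0.49 for the 18 without (15 called higher). It was 0.61 for the 17 members with a longer word and 0.48 for the 31 without, and 0.72 for the 26 members with CCAAT and 0.43 for the 22 without. None of these differences between members was tested. Among all genes tested with a promoter, 28.4% of 2297 with a word and 19.2% of 13317 without were called higher. These groups include the 30 and 18 members, and the difference between them was not tested. E2f1, Mcm2 and Tk1 are among the members with no 7-letter word in this window.

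Of 13 helicase genes 11 were higher and 2 were not called, against 19.5% of all genes called higher. The median difference was 0.95. Steps were not tested against each other. All 6 subunits of the Mcm2 to Mcm7 ring were higher, with no overlap between subsets. Mcm6 stood at 7.79, 7.54 and 7.84 in Ly6C- F4/80high cells of mice 1, 2 and 3, against 5.91, 5.97 and 5.79 in Ly6C+ F4/80low cells. It was 3.57-fold higher, a difference of 1.83 (SE 0.10, limma adjusted p = 1.02e-06), and had the largest difference of the ring in each mouse. Mcm2 stood at 8.07, 7.96 and 8.08 in Ly6C- F4/80high cells, against 6.59, 6.84 and 6.64 in Ly6C+ F4/80low cells, a difference of 1.35 (SE 0.09, limma adjusted p = 3.46e-06). The other ring subunits lay close together, with Mcm3 at 0.99 (SE 0.10), Mcm7 at 0.98 (SE 0.09), Mcm5 at 0.96 (SE 0.08) and Mcm4 at 0.95 (SE 0.08). The 95% interval of Mcm6, 1.62 to 2.05, did not reach those of the other subunits, of which Mcm2 had the highest, 1.15 to 1.55. The difference between subunits was not tested.

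**Figure D2:**
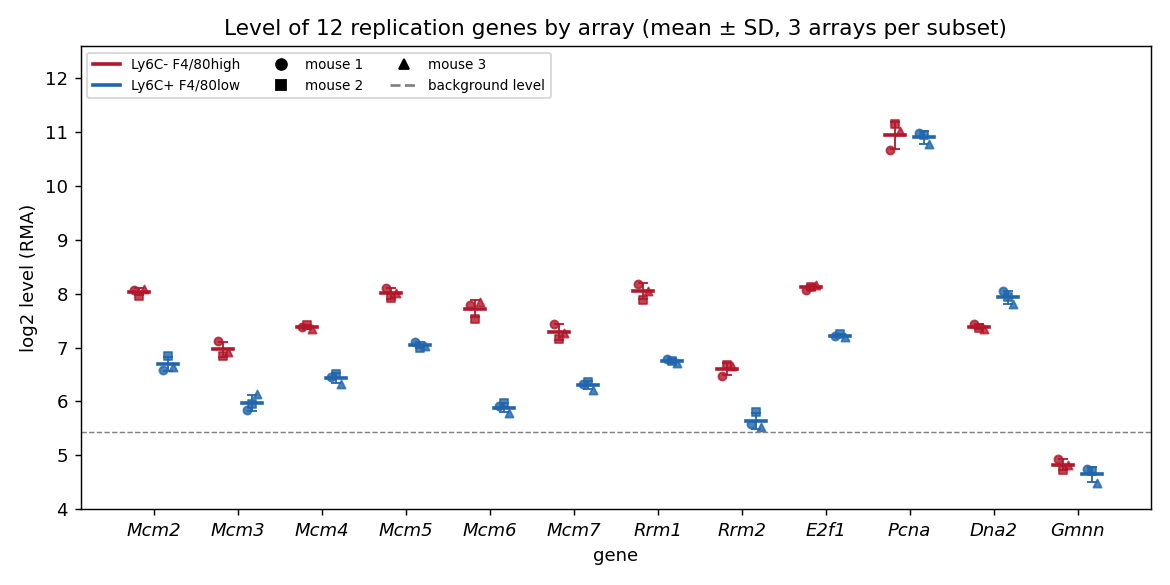
Log2 level of 12 replication genes, with each point an array, its shape the mouse, the bar the mean and the whiskers the SD of 3 arrays per subset. Levels of different genes come from different probes and are not comparable with each other. The points of the 6 Mcm genes, Rrm1, Rrm2 and E2f1 are higher in Ly6C- F4/80high cells without overlap, Dna2 is lower, and Pcna and Gmnn overlap.

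The partners that turn the ring into a working helicase varied. Of the 4 GINS genes, Gins4 was higher by 0.93 (SE 0.09) and Gins2 by 0.59 (SE 0.10). Gins1 was not above background on any Ly6C+ F4/80low array and at least 1.51-fold higher (limma adjusted p = 7.70e-06). Gins3 was not called, at 0.10 (95% interval -0.12 to 0.32), with 1 of 6 arrays above background. Cdc45, the factor that joins GINS on the ring, stood at 6.14, 6.42 and 6.09 in Ly6C- F4/80high cells, against 5.94, 5.83 and 6.17 in Ly6C+ F4/80low cells. Its arrays overlapped, and the difference of 0.24 (95% interval -0.02 to 0.49, limma adjusted p = 0.138) was not called. Mcm10, which helps to start the helicase, was higher by 0.48 (SE 0.10), a call lost without mouse 3 (limma adjusted p = 0.0697). Mcm8, of a helicase that acts in repair by recombination, was called higher with all 6 arrays under the background, so no fold is given.

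Of 9 licensing genes 7 were higher and 2 were not called, with a median of 0.38, against 19.5% of all genes called higher. Orc2, of the origin recognition complex, stood at 7.63, 7.39 and 7.71 in Ly6C- F4/80high cells, against 6.56, 6.85 and 6.71 in Ly6C+ F4/80low cells, a difference of 0.87 (SE 0.11, limma adjusted p = 0.000193). Orc5 stood at 7.12, 6.77 and 6.999 in Ly6C- F4/80high cells, against 6.56, 6.62 and 6.05 in Ly6C+ F4/80low cells, a difference of 0.55 (SE 0.15, limma adjusted p = 0.0173). The groups did not overlap for either gene, and the lowest Orc5 value was that of mouse 3 in Ly6C+ F4/80low cells. Orc3, Orc4 and Orc6, further subunits of the complex, were higher by 0.28, 0.31 and 0.38, and Orc1, the subunit that comes and goes with the cycle, was called with all 6 arrays under the background. Cdt1, the loader of the ring, was higher by 0.41 (SE 0.12, limma adjusted p = 0.0221).

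Several of these calls rest on all arrays being present. Orc3 and Orc4 were no longer called without the array of mouse 3 in either subset (limma adjusted p = 0.0567 to 0.0669). Orc5 lost its call without the array of mouse 1 or 3 from Ly6C- F4/80high cells (adjusted p = 0.0569 and 0.0677 in limma), and Cdt1 without that of mouse 1 or 2 (limma adjusted p = 0.0532 and 0.0693). Orc6 lost it without any of the 4 arrays of mice 1 and 3 (limma adjusted p = 0.0521 to 0.0924) and with the mouse as a block (limma adjusted p = 0.0555). Orc1 was not called without mouse 1 (limma adjusted p = 0.0661). In fits without a whole mouse the limma adjusted p went up to 0.155 for Orc3, 0.166 for Orc4 and 0.105 for Orc5. It went up to 0.208 for Orc6 and 0.125 for Cdt1. After another normalisation Orc3 was not called (limma adjusted p = 0.0753 with quantile and 0.0635 with cyclic loess), nor Orc6 with quantile (0.0520), nor Cdt1 with cyclic loess (0.0516). All of these differences stayed positive.

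Cdc6, the partner of Cdt1 in loading, and Gmnn, the inhibitor of Cdt1, were not called. Cdc6 differed by 0.23 (95% interval -0.09 to 0.56, limma adjusted p = 0.239), with 2 of 3 Ly6C- F4/80high and 1 of 3 Ly6C+ F4/80low arrays above background. Gmnn stood at 4.93, 4.72 and 4.82 in Ly6C- F4/80high cells, against 4.75, 4.71 and 4.49 in Ly6C+ F4/80low cells, all under the background. Its difference of 0.18 (limma adjusted p = 0.178) became 0.28 after quantile normalisation (limma adjusted p = 0.0487) and 0.30 after cyclic loess (limma adjusted p = 0.0415). Whether Gmnn RNA differed cannot be read from values this low.

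All 10 polymerase and primase genes were higher, against 19.5% of all genes, with a median of 0.90. Prim1, the catalytic primase subunit that lays the RNA primers, stood at 5.75, 5.39 and 5.36 in Ly6C- F4/80high cells, against 3.87, 3.68 and 4.22 in Ly6C+ F4/80low cells. With no Ly6C+ F4/80low array and 1 of 3 Ly6C- F4/80high arrays above background, the bound is at least 1.04-fold higher (limma adjusted p = 3.12e-05). Pole, the catalytic subunit of the leading-strand polymerase epsilon, stood at 6.03, 5.68 and 6.02 in Ly6C- F4/80high cells, against 4.59, 4.44 and 4.35 in Ly6C+ F4/80low cells. That is at least 1.38-fold higher (limma adjusted p = 9.23e-06), and its partner Pole2 was at least 1.99-fold higher (limma adjusted p = 7.75e-06). Prim2, the other primase subunit, was 2.07-fold higher and was above background on all arrays. Pola1, the catalytic subunit of polymerase alpha, was also 2.07-fold higher, with 1 of 3 Ly6C+ F4/80low arrays above background. The subunits of 1 enzyme were not alike, since Pola2, of polymerase alpha, differed by 0.40 (SE 0.08) and Pole3, a histone-fold subunit of polymerase epsilon, by 0.39 (SE 0.09). For polymerase delta, which copies the lagging strand, Pold2 differed by 0.76 (SE 0.09), Pold3 by 0.54 (SE 0.08) and the catalytic Pold1 by 0.35 (SE 0.07). Pole3 was not called without mouse 2 or 3 (limma adjusted p = 0.0669 and 0.0766), nor Pold1 without mouse 3 (limma adjusted p = 0.0617).

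**Figure D3:**
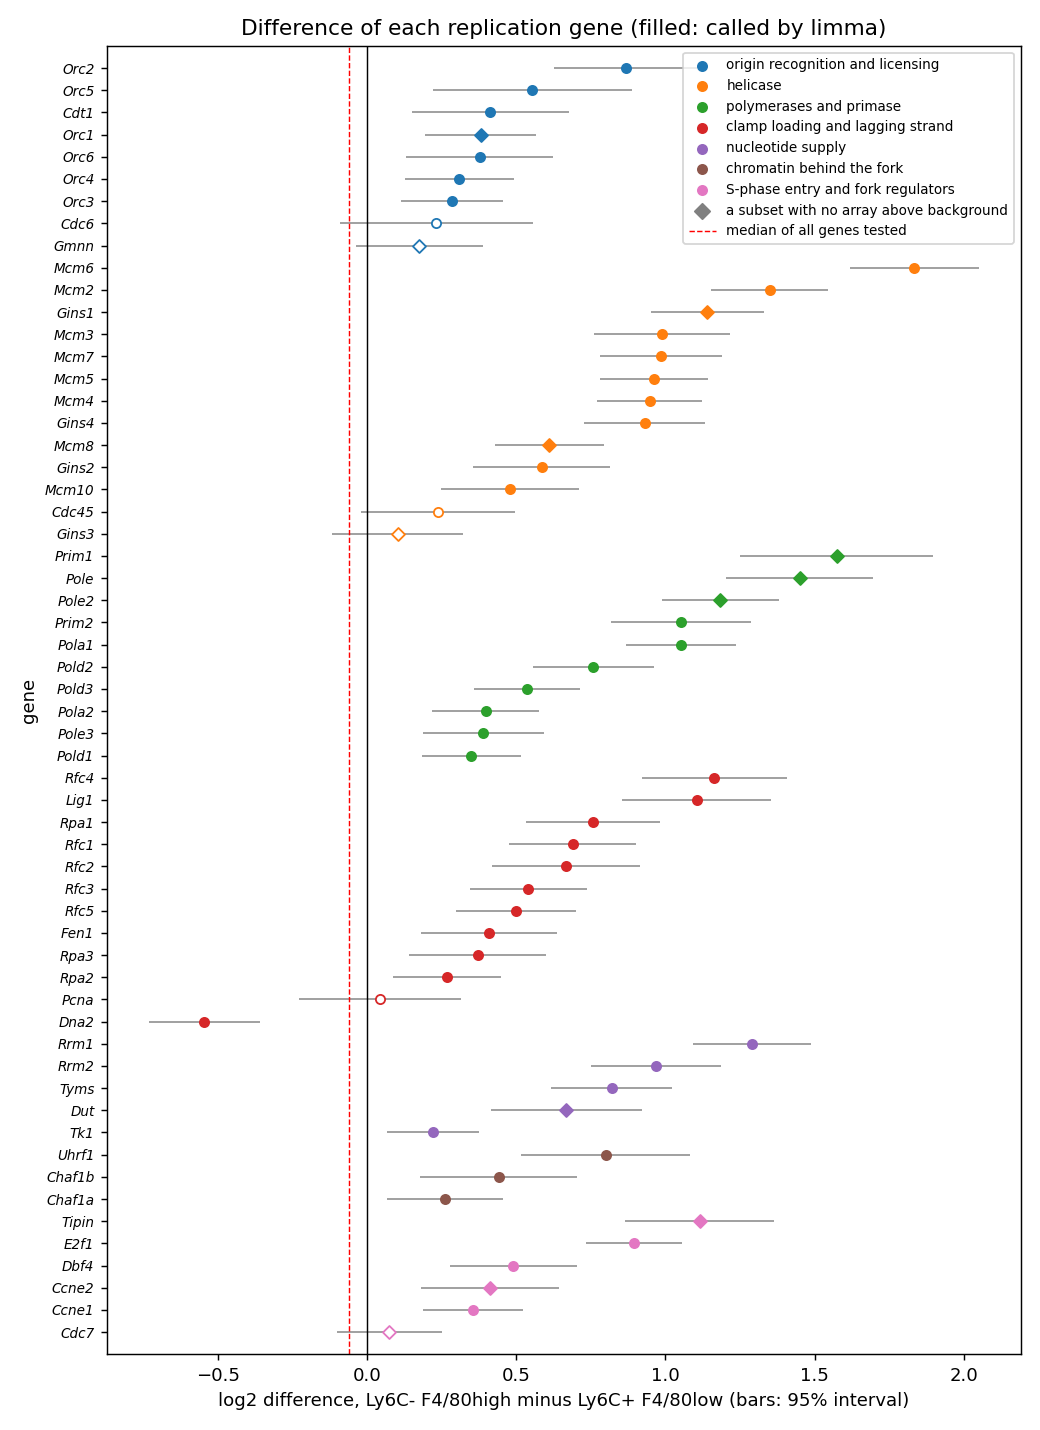
Log2 difference (Ly6C- F4/80high minus Ly6C+ F4/80low) of each of the 58 genes with its 95% interval from limma, coloured by step, filled where called. Diamonds mark genes with no array above background in at least 1 subset, whose differences are not a measure of fold. Called genes lie between -0.55 (Dna2) and 1.83 (Mcm6), and the dashed line is the median of all genes tested, -0.06.

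Clamp loading and lagging-strand genes held the only lower gene and the Pcna clamp, which was not called. Of 12 genes 10 were higher, 1 was lower and 1 was not called, against 19.5% of all genes called higher and 14.3% lower. The median was 0.52, and all 12 were above background on all arrays. All 5 subunits of replication factor C, which opens the clamp and sets it on DNA, were higher. Rfc4 stood at 7.40, 7.19 and 7.46 in Ly6C- F4/80high cells, against 6.39, 6.12 and 6.05 in Ly6C+ F4/80low cells, a difference of 1.16 (SE 0.11, limma adjusted p = 3.41e-05). Rfc1, Rfc2, Rfc3 and Rfc5 differed by 0.69, 0.67, 0.54 and 0.50. Lig1, the ligase that seals Okazaki fragments, stood at 6.89, 6.58 and 6.96 in Ly6C- F4/80high cells, against 5.68, 5.59 and 5.85 in Ly6C+ F4/80low cells. It was 2.15-fold higher, a difference of 1.11 (SE 0.11, limma adjusted p = 5.42e-05), and the groups of Rfc4 and Lig1 did not overlap. Fen1, the nuclease that trims the same fragments, was higher by 0.41 (SE 0.10).

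Of the single-strand binding complex RPA, Rpa1 was higher by 0.76 (SE 0.10), Rpa2 by 0.27 (SE 0.08) and Rpa3 by 0.37 (SE 0.10). Rpa2 was not called without any of the 4 arrays of mice 1 and 3 (limma adjusted p = 0.0807 to 0.0961) or with the mouse as a block (0.0597). Rpa3 was not called without the array of mouse 1 or 3 from Ly6C- F4/80high cells or the Ly6C+ F4/80low array of mouse 3 (limma adjusted p = 0.0534 to 0.0713). Its other probe set differed by 0.18 (SE 0.11), and the mean of the 2 probe sets was not called (limma adjusted p = 0.0516). Fen1 lost its call without mouse 2 or 3 (limma adjusted p = 0.0534 and 0.0626). In fits without a whole mouse the limma adjusted p went up to 0.193 for Rpa2 and 0.139 for Rpa3.

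Pcna, the sliding clamp itself, stood at 10.67, 11.14 and 11.02 in Ly6C- F4/80high cells, against 10.98, 10.95 and 10.77 in Ly6C+ F4/80low cells. The arrays overlapped, and the difference was 0.04 (SE 0.12, 95% interval -0.23 to 0.31, limma adjusted p = 0.810), an interval whose upper end lies below the estimate for each subunit of replication factor C. The difference between genes was not tested. A second probe set annotated to Pcna differed by 0.05 (SE 0.13). Which of these probe sets could also read near-identical copies of the gene was not tested.

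Dna2, a helicase-nuclease that trims long flaps on Okazaki fragments and resects broken ends, was the only lower gene of the 58. It stood at 7.44, 7.37 and 7.35 in Ly6C- F4/80high cells, against 8.05, 7.93 and 7.81 in Ly6C+ F4/80low cells. The groups did not overlap, and it differed by -0.55 (SE 0.08, limma adjusted p = 0.000747), in the same direction in each mouse and called under all 17 alternatives.

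Nucleotide supply genes were all higher, 5 of 5, against 19.5% of all genes, with a median of 0.82. Rrm1, the large subunit of ribonucleotide reductase, which makes the deoxynucleotides, stood at 8.19, 7.89 and 8.05 in Ly6C- F4/80high cells, against 6.79, 6.75 and 6.72 in Ly6C+ F4/80low cells. It was 2.45-fold higher, a difference of 1.29 (SE 0.09, limma adjusted p = 4.91e-06). Rrm2, the small subunit that limits the enzyme to S phase, stood at 6.48, 6.68 and 6.65 in Ly6C- F4/80high cells, against 5.57, 5.81 and 5.52 in Ly6C+ F4/80low cells. It was 1.96-fold higher, a difference of 0.97 (SE 0.10, limma adjusted p = 5.34e-05), and neither subunit had overlapping groups. Tyms, which makes thymidylate, was higher by 0.82 (SE 0.09). Dut, which clears dUTP, was called higher with all 6 arrays under the background. Tk1, the thymidine salvage kinase, differed by 0.22 (SE 0.07, limma adjusted p = 0.0337). It lost its call without each of the 6 arrays in turn (limma adjusted p = 0.0615 to 0.0874) and without each mouse in turn (limma adjusted p = 0.0908 to 0.176). Tk1 also lost it with the mouse as a block (limma adjusted p = 0.0642) and after quantile or cyclic loess normalisation (limma adjusted p = 0.0687 and 0.0601). Its second probe set differed by 0.62 (SE 0.09), called with an adjusted p of 0.00414 when limma was run over all probe sets, and the mean of the 2 probe sets by 0.42 (limma adjusted p = 0.00147). Whether either Tk1 probe set also reads a near-identical copy was not tested.

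The chromatin genes that act behind the fork were higher in 3 of 3 cases, against 19.5% of all genes, with a median of 0.44. Uhrf1, which carries DNA methylation over to the new strand, stood at 6.21, 6.02 and 6.21 in Ly6C- F4/80high cells, against 5.65, 5.25 and 5.14 in Ly6C+ F4/80low cells, of which 1 of 3 was above background. It differed by 0.80 (SE 0.13, limma adjusted p = 0.000886). Chaf1b, of the histone chaperone CAF-1, stood at 7.34, 7.49 and 7.11 in Ly6C- F4/80high cells, against 6.69, 7.04 and 6.88 in Ly6C+ F4/80low cells. The groups lay close together, 7.11 against 7.04 at the nearest, and the difference was 0.44 (SE 0.12, limma adjusted p = 0.0164). Chaf1a, its large partner, differed by 0.26 (SE 0.09, limma adjusted p = 0.0415), the weakest call of the 58 genes. Chaf1b was not called without the array of mouse 1 in either subset or the Ly6C- F4/80high array of mouse 2 (limma adjusted p = 0.0509 to 0.0588). Chaf1a was not called without 5 of the 6 arrays, all but the Ly6C- F4/80high array of mouse 2 (limma adjusted p = 0.0759 to 0.137). It was not called with the mouse as a block either (limma adjusted p = 0.0548). In fits without a whole mouse the limma adjusted p went up to 0.134 for Chaf1b and 0.235 for Chaf1a.

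Of the 6 regulators of S-phase entry and the fork, 5 were higher and 1 was not called, against 19.5% of all genes called higher. E2f1, the activator that drives many of the other genes, stood at 8.07, 8.12 and 8.16 in Ly6C- F4/80high cells, against 7.22, 7.25 and 7.20 in Ly6C+ F4/80low cells. The spread within each subset was small, and E2f1 was 1.86-fold higher, a difference of 0.89 (SE 0.07, limma adjusted p = 1.24e-05). Tipin, of the complex that steadies the fork, stood at 6.04, 5.73 and 6.17 in Ly6C- F4/80high cells, against 4.80, 4.96 and 4.83 in Ly6C+ F4/80low cells, at least 1.45-fold higher (limma adjusted p = 5.32e-05). Ccne1, the cyclin E1 gene, stood at 6.77, 6.70 and 6.82 in Ly6C- F4/80high cells, against 6.46, 6.40 and 6.36 in Ly6C+ F4/80low cells, a difference of 0.35 (SE 0.07, limma adjusted p = 0.00487). Ccne2, for cyclin E2, was at least 1.09-fold higher, with 2 of 3 Ly6C- F4/80high arrays above background (limma adjusted p = 0.0124).

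Without mouse 3 Ccne1 was not called (limma adjusted p = 0.0713). Ccne2 was not called without the array of mouse 3 from Ly6C- F4/80high cells (limma adjusted p = 0.0529). Ccne2 also lost its call without mouse 1 or mouse 3 (limma adjusted p = 0.1181 to 0.1325). Dbf4, the activating partner of the kinase Cdc7, was higher by 0.49 (SE 0.10). Cdc7 itself differed by 0.07 (95% interval -0.10 to 0.25, limma adjusted p = 0.482), with all 6 arrays under the background.

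Background levels limit the fold of some genes. In all, 40 of the 51 higher genes were above background on all 6 arrays. Of the 12 genes called higher by at least 2-fold, against 1.91% of all genes, 5 had no Ly6C+ F4/80low array above background. The 7 others were Mcm6, Mcm2, Rrm1, Rfc4, Lig1, Pola1 and Prim2. With the 7 genes dim in 1 subset set to the background there, and the 5 dim on all arrays set to 0, the median of the 58 differences was 0.49.

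Other genes of replication and S phase, from a list of 54 of which 52 were measured, included genes called in both directions. Of the 52, 28 were higher, 5 were lower and 19 were not called, with a median of 0.32, against the same background of 19.5% higher and 14.3% lower. Without mouse 3 the 28 higher became 18. The histone chaperone and methylation genes were higher in 5 of 6 cases, among them Asf1b, a chaperone that hands histones to CAF-1, at 1.10 (SE 0.08) and Dnmt1, the maintenance methyltransferase that Uhrf1 recruits, at 0.80 (SE 0.10). Hells, a remodeller of methylated chromatin, was called with all arrays under the background. Rnaseh2b and Rnaseh2a, of the enzyme that removes RNA from DNA, were higher by 1.11 (SE 0.08) and 0.79 (SE 0.17), and Pole4, a small subunit of polymerase epsilon, by 0.35 (SE 0.11). Rnaseh2a was not called without mouse 3 (limma adjusted p = 0.0551). Pole4 was not called without the array of mouse 2 or 3 from Ly6C- F4/80high cells or the Ly6C+ F4/80low array of mouse 1 or 3 (limma adjusted p = 0.0677 to 0.124). It was also not called without mouse 2 or mouse 3 as a whole (limma adjusted p = 0.0640 to 0.267).

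Of 8 origin firing factors 4 were higher, 1 was lower and 3 were not called, against 19.5% of all genes called higher and 14.3% lower. Wdhd1, which ties polymerase alpha to the helicase, was higher by 0.78 (SE 0.09) and Topbp1, which brings GINS to the ring, by 0.62 (SE 0.10). Donson, a replication fork protein, stood at 6.49, 6.44 and 6.66 in Ly6C- F4/80high cells, against 7.17, 7.43 and 7.18 in Ly6C+ F4/80low cells, a difference of -0.73 (SE 0.10, limma adjusted p = 0.000341). Of 8 fork protection and cohesion genes 3 were higher and 5 were not called, against the same shares of all genes. Rif1, a regulator of origin timing, was higher by 0.43 (SE 0.08), a call lost without mouse 3 (limma adjusted p = 0.0548), and Atad5 and Esco2 were called with all arrays under the background. Esco2 was not called without the array of mouse 1 in either subset or that of mouse 3 in Ly6C+ F4/80low cells (limma adjusted p = 0.0546 to 0.0592). It was also not called without mouse 1 or mouse 3 as a whole (limma adjusted p = 0.0844 to 0.147).

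Of 7 other nucleotide enzyme genes measured 3 were higher, 2 were lower and 2 were not called, against 19.5% of all genes called higher and 14.3% lower. Dtymk, which phosphorylates thymidylate, was higher by 0.68 (SE 0.11) and Dctd, which feeds thymidylate synthesis, by 0.58 (SE 0.11). Samhd1, which breaks down deoxynucleotides in myeloid cells, stood at 10.61, 10.55 and 10.55 in Ly6C- F4/80high cells, against 11.31, 11.27 and 11.03 in Ly6C+ F4/80low cells, a difference of -0.64 (SE 0.09, limma adjusted p = 0.000431). The salvage kinase gene Dck stood at 7.61, 7.62 and 7.59 in Ly6C- F4/80high cells, against 8.13, 8.08 and 7.90 in Ly6C+ F4/80low cells, a difference of -0.43 (SE 0.08, limma adjusted p = 0.00262). Neither gene had overlapping groups.

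Among 12 other E2F and pocket protein genes 7 were higher, 1 was lower and 4 were not called. Of all genes, 19.5% were called higher and 14.3% lower. The pocket protein genes Rbl1 and Rbl2 were higher by 0.88 (SE 0.12) and 0.74 (SE 0.11), and E2f6, a repressor of the family, by 0.81 (SE 0.08). E2f2, an activator like E2f1, stood at 6.57, 6.70 and 6.68 in Ly6C- F4/80high cells, against 7.30, 7.11 and 7.07 in Ly6C+ F4/80low cells, a difference of -0.51 (SE 0.09, limma adjusted p = 0.00130). Of 6 genes of Cdk2 and its control 3 were higher, 1 was lower and 2 were not called, against the same shares of all genes. Skp2, which marks the inhibitor p27 for destruction, was higher by 0.40 (SE 0.11), and Fbxo5, an inhibitor of the anaphase-promoting complex, was at least 1.04-fold higher. Cdkn1b, the gene of p27, stood at 8.14, 8.07 and 8.16 in Ly6C- F4/80high cells, against 8.54, 8.87 and 8.89 in Ly6C+ F4/80low cells, a difference of -0.65 (SE 0.10, limma adjusted p = 0.000877). Skp2 was not called without the array of mouse 1 or 2 from Ly6C- F4/80high cells or the Ly6C+ F4/80low array of mouse 1 or 3 (limma adjusted p = 0.0502 to 0.0632). It was also not called without mouse 1 or mouse 3 as a whole (limma adjusted p = 0.0575 to 0.128).

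Of 17 measured genes listed for mitosis, a later stage of the cycle, 13 were higher and 4 were not called (median 0.75). Of all genes, 19.5% were called higher. The 4 not called were Cdc20 at 0.01, Aurka at 0.05, Bub1b at 0.13 and Birc5 at 0.14. Cdc20, Aurka and Bub1b were above background on all 6 arrays, and Birc5 on 1 of 3 Ly6C- F4/80high arrays and 0 of 3 Ly6C+ F4/80low arrays. Ccna2, for cyclin A2, Top2a, the topoisomerase that untangles copied DNA, and Kif11, a spindle motor, had no Ly6C+ F4/80low array above background and were at least 3.52-fold, 2.26-fold and 1.35-fold higher. Their difference from the replication genes was not tested.

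**Figure D4:**
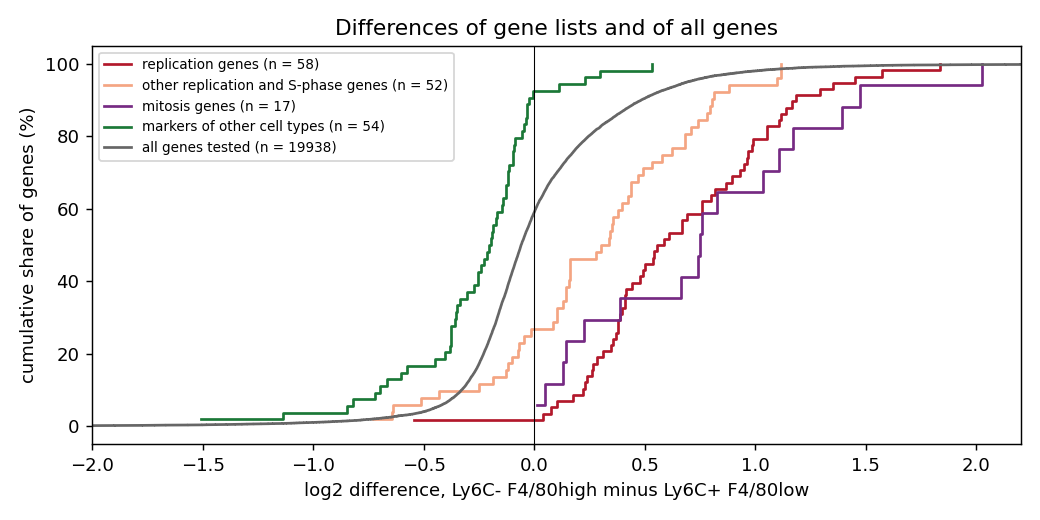
Cumulative share of genes (percent) against the log2 difference (Ly6C- F4/80high minus Ly6C+ F4/80low) for the 58 replication genes, the 52 other replication and S-phase genes, 17 mitosis genes, 54 markers of other cell types and all 19938 genes tested. The curves of the 58 replication genes and of the mitosis genes lie to the right of that of all genes, with 57 of the 58 above 0, and most of the marker curve lies to the left of it.

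Markers of other cell types were mostly lower or not called. Of 58 listed markers of 10 other cell types 54 were measured. Of these 1 was higher, 19 were lower and 34 were not called, against 19.5% of all genes called higher and 14.3% lower. Of the 54, 27 were under the background on all 6 arrays. The lower markers Col3a1 and Siglecf were not called with the mouse as a block (limma adjusted p = 0.0598 and 0.0553). Ccr7, Kit and Myog, also lower, were not called in some fits without 1 array. The higher marker was Cd79b, of the B cell receptor, at 0.53 (SE 0.10). The B cell genes Cd79a and Ms4a1 were under the background on all arrays, and Pax5 on all 3 Ly6C- F4/80high arrays. Of 6 T cell markers measured 1 was lower, Cd3e at -0.45 (SE 0.09), and 5 were not called, of which Cd3d and Cd3g were under the background throughout. Cd2 differed by 0.23, not called, with 2 of 3 Ly6C- F4/80high arrays and 0 of 3 Ly6C+ F4/80low arrays above background, and Cd4 and Cd8a differed by -0.05 and -0.34, also not called. All 5 NK cell markers were under the background on all arrays. Of the endothelial markers 4 of 5 were lower, led by Cdh5 at -1.51 (SE 0.10), and Kdr was not called, at 0.11. Of 5 fibro-adipogenic progenitor markers 4 were lower. Of 8 neutrophil markers 3 were lower, S100a9 at least 1.27-fold and Cxcr2 and Ly6g with all arrays under the background. The other 5 were not called, among them S100a8 at 0.30. Of 6 dendritic cell markers 3 were lower, Siglech at least 1.43-fold, Flt3 at least 1.36-fold and Ccr7 at -0.38, and 3 were not called. Summed over the measured markers of a type on the linear scale, the satellite cell list lay at 238 to 271 in Ly6C- F4/80high cells and at 280 to 289 in Ly6C+ F4/80low cells. The T cell list lay at 178 to 217 in Ly6C- F4/80high cells and at 208 to 243 in Ly6C+ F4/80low cells. The B cell list lay at 201 to 226 in Ly6C- F4/80high cells and at 170 to 191 in Ly6C+ F4/80low cells. On any array at most 4 of 6 satellite cell, 3 of 6 T cell and 2 of 4 B cell markers were above background. The satellite cell and T cell sums therefore largely compare levels near the background. Of the B cell markers only Cd79b was above it on all 6 arrays, at a mean of 7.15 in Ly6C- F4/80high and 6.62 in Ly6C+ F4/80low cells. The part of other cell types in the replication gene result was not tested. The macrophage markers Cd68, Csf1r, Itgam, Fcgr1, Adgre1 and Mertk were above background on all arrays of both subsets. They went both ways. Mertk (1.57), Adgre1 (0.73) and Cd68 (0.31) were higher, Itgam (-0.23) and Fcgr1 (-0.28) were lower, and Csf1r (-0.18) was not called. The call of Cd68 was lost without mouse 3 (limma adjusted p = 0.0652).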

How the data were processed

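Total RNA of 6 sorted samples (150 ng each, per the labels' protocols) was measured on 1 array per sample. The authors deposited log2 expression values made with RMA, per the submitters' processing notes, which name no version or settings in the sources used here. The log2 scale was read from the values. RMA compresses low signals. Precision is limited by 3 arrays per subset.

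Of 35556 probe sets 21789 had 1 gene symbol in the annotation given with the values, 1621 had several and 12146 had none, which left 19938 symbols. Among the members Pcna, Tk1 and Rpa3 had more than 1 probe set. Promoters and coordinates are from RefSeq, GRCm38.p6, and the values carry no coordinates of their own.

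Differences were fitted with limma 3.58.1 (R 4.3.3, lmFit with eBayes, two-sided, no trend and no filter on level). The code was tested on simulated data.

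The members and gene lists were chosen with earlier results of these data known, so no p-value is given for a list. Every member is named. Values of all 6 arrays are given for the 2 called members of each step with the largest differences, called members of the opposite sign, and Pcna, Mcm2, Gmnn, Ccne1, E2f1 and Rrm2. Of the other lists up to 3 called genes are named, and those of the opposite sign.

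Subsets of 1 mouse are paired, since the labels name the same animal for both. Deviations of paired arrays from their subset means correlated at 0.03, -0.08 and 0.09 in mice 1, 2 and 3. The sources state no paired test, and the mouse as a block was an alternative. The other alternatives were quantile normalisation, a common median, cyclic loess, 2 filters on level, the mean of probe sets, a trended robust prior, and fits without each array or mouse in turn.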

Additional observations from a re-analysis of the deposited data

How the results depend on the processing

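The counts of members called held within 1.5 times under all 17 alternatives, between 37 and 51 higher and always 1 lower. The 2 filters on level tested only 54 and 47 members, of which 48 and 44 were higher. The share of all genes called higher ran from 13.4% without mouse 3 to 32.2% among genes with a mean level above background. With the mouse as a replicate block 47 members were higher and 1 was lower, and of the other replication genes 28 were higher and 5 lower, and the block changed no call of a member other than Orc6, Rpa2, Tk1 and Chaf1a. The median member difference was 0.57, and 0.65 with a common median of the arrays. Leaving out arrays or mice gave medians from 0.55 to 0.60. Other replication genes called higher ranged from 18 (without mouse 3) to 26 when arrays or mice were left out, and those lower from 5 to 6. Of the 52 called members 17 lost their call under at least 1 alternative, each of them in at least 1 fit without a whole mouse. The difference of Pcna, never called, changed sign after cyclic loess (-0.011), and with mouse 2 left out from Ly6C- F4/80high cells (-0.06), mouse 3 left out from Ly6C+ F4/80low cells (-0.02), or mouse 2 (-0.03) or mouse 3 (-0.060) left out of both, in a range from -0.060 to 0.220. Of all called genes 57.6% were higher (3887 higher, 2861 lower), and 73.4% with a common median (4789 higher, 1737 lower), with 51 members higher in both. Members under the background have no reliable fold.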
